A study of Homo sapiens with 10 samples.

Results

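Bidirectional protein-coding promoters are stretches of DNA from which a pair of genes is read in opposite directions, the minus-strand gene to the left and the plus-strand gene to the right. Members were pairs of protein-coding genes of GENCODE release 44, lifted to hg19/GRCh37, on chromosomes 1 to 22, whose most upstream starts lay head to head and 1000 bp or less apart. The region of a member runs from start to start and is widened by 500 bp on each side. The rule gave 859 pairs, which hold 1656 of 19229 protein-coding genes (8.61%), at 798 loci of regions that do not overlap each other. The remaining 17573 genes gave 1 region each, the start widened by 500 bp on each side, and are called other promoters. The distance between the starts of a pair had a median of 130 bp (95% interval 120 to 141 bp) and ran from 1 to 995 bp. Of the members, 119 shared a gene with another member and 78 included a gene annotated as a readthrough, a transcript that runs on from 1 gene into the next.

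The study mapped open chromatin and 3 histone marks in MDAMB231, a line of triple-negative breast cancer cells that grows with a mesenchymal shape. FAIRE-seq, which enriches DNA free of nucleosomes, and ChIP-seq for H3K4me3, H3K27Ac and H3K4me1 had 2 samples each, and 1 input sample served FAIRE and 1 the ChIP, 10 samples in all. The labels name no treatment. The deposited peak lists combine the samples of an assay, so there is 1 list per assay and no replicate error. Intervals below are 95% intervals for counting error over regions alone, neighbouring regions are not independent, and read depth is not in the files. The lists held 18019 H3K4me3, 37495 H3K27Ac, 26771 H3K4me1 and 46552 FAIRE peaks. The promoters of VIM, CD44, CAV1, AXL and ZEB1, markers of mesenchymal or basal B lines, had H3K4me3 and H3K27Ac. Those of ESR1, CDH1 and KRT5, markers of luminal, epithelial or keratin-rich cells, had no peak of any list. Other markers of those cells did have peaks: PGR had H3K4me3 alone, GATA3 had H3K4me3 and H3K27Ac, and EPCAM had all 4. Each marker was read at its most upstream annotated start only, so these values do not cover other promoters of the same genes. None of these 11 marker genes belongs to a member pair.

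Trimethylation of histone H3 at lysine 4 marks the nucleosomes around active starts, acetylation at lysine 27 marks active promoters and enhancers, and monomethylation at lysine 4 flanks active starts and covers enhancers. Head-to-head pairs are common in mammalian genomes, usually lie in CpG islands, and often encode housekeeping functions such as DNA repair and mitochondrial translation. The DNA between the starts serves both genes and is kept free of nucleosomes where transcription begins.

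The stretches from start to start show what the rule selects. All are on the plus strand of the hg19/GRCh37 reference and run from the start of the minus-strand gene to the start of the plus-strand gene. Capitals mark matches, on either strand, to GGGCGG (the GC box) and CCAAT (the CCAAT box). The textbook pairs come first, because their shared promoters have long been studied: PPAT/PAICS at chr4:57301781-57301907, COL4A4/COL4A3 at chr2:228029169-228029340 and SARS2/MRPS12 at chr19:39421403-39421584. Then come pairs without a peak of any list, whose starts nearly touch: PLCZ1/CAPZA3 at chr12:18891034-18891053, CIDEB/LTB4R at chr14:24780636-24780656 and PRSS54/GINS3 at chr16:58328951-58328984. The last were added after their values were seen: SHC1/CKS1B at chr1:154946871-154947129 has 1 of the widest H3K4me3 peaks, and KIF24/NUDT2 at chr9:34329266-34329504 has 1 of the tallest FAIRE peaks.
PPAT/PAICS: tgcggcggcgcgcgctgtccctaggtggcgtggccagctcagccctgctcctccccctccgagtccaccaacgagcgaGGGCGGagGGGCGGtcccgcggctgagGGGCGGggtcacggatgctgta
COL4A4/COL4A3: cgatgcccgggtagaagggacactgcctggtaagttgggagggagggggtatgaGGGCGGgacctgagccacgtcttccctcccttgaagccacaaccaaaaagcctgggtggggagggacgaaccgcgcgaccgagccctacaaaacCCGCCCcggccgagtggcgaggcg
SARS2/MRPS12: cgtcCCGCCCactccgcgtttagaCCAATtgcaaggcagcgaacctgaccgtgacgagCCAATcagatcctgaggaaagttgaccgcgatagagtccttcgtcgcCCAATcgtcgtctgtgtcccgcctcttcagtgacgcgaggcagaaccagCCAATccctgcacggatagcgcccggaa
PLCZ1/CAPZA3: tgacctcatcaggaggctca
CIDEB/LTB4R: gaaggggccttggcgaagctg
PRSS54/GINS3: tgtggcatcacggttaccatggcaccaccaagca
SHC1/CKS1B: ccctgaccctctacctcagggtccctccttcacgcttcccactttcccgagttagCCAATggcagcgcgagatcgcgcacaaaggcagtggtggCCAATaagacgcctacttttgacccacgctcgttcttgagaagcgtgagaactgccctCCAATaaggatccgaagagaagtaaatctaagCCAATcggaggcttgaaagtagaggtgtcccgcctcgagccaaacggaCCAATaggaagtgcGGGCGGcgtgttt
KIF24/NUDT2: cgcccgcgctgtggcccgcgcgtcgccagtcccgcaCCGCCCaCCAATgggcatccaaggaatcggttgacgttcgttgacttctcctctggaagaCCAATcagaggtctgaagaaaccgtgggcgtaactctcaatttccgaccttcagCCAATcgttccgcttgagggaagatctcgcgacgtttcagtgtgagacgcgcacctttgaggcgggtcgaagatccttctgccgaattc

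The textbook stretches differ in their boxes. The 127 bases of PPAT/PAICS held 3 GC boxes and no CCAAT box, and the 182 bases of SARS2/MRPS12 held 4 CCAAT boxes and 1 GC box. The 259 bases of SHC1/CKS1B held 5 CCAAT boxes and the 239 bases of KIF24/NUDT2 held 3. None of the stretches of the pairs without a peak held either box, but these are only 20 to 34 bases long.

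Nearly all members carried the marks of an active promoter. An H3K4me3 peak shared at least 1 base with 807 of the 859 member regions (93.9%, Wilson interval 92.1 to 95.4%), where 60.2% of all 18432 promoter regions had one. Among other promoters the count was 10288 of 17573 (58.5%, 57.8 to 59.3%). The difference was 35.4 percentage points, with a Newcombe interval of 33.5 to 36.99, and a difference is called where this interval leaves out 0. Member windows are also richer in CpG, and within 5 classes of CpG content the pooled difference was smaller, 12.4 points (10.8 to 14.0).

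Acetylation followed the same pattern. H3K27Ac peaks met 785 members (91.4%, 89.3 to 93.1%), against 55.9% of all regions and 9511 other promoters (54.1%, 53.4 to 54.9%). The difference was 37.3 points (35.1 to 39.1), and 17.1 points (15.1 to 19.0) within the CpG classes. Nearly every member with trimethylation was thus also acetylated: 784 of 807 (97.1%, 95.8 to 98.1%), where 9167 of the 10288 other promoters with H3K4me3 were (89.1%, 88.5 to 89.7%).

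Open chromatin differed by about as much as the histone marks. FAIRE peaks met 528 members (61.5%, 58.2 to 64.7%), against 27.1% of all regions and 4465 other promoters (25.4%, 24.8 to 26.1%). The difference of 36.1 points (32.7 to 39.3) was 26.7 points (23.3 to 30) within the CpG classes. FAIRE was the more frequent at members in each of the 5 classes, but the intervals overlapped in the class poorest in CpG, with 3 of 15 members and 7.24% of other promoters. In the class richest in CpG, 200 of 333 members had FAIRE (60.1%) and 1192 of 3211 other promoters (37.1%). In the same class H3K4me3 differed less, with 97.9% of members and 89.0% of other promoters.

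H3K4me1 was the mark found at few members. Its peaks met 130 of them (15.1%, 12.9 to 17.7%), against 9.44% of all regions and 1610 other promoters (9.16%, 8.74 to 9.60%). The difference was 5.97 points (3.69 to 8.56) when any shared base counted. It reversed to -2.85 points (-3.84 to -1.46) when the midpoint between the starts, or the start of an other promoter, had to lie inside the peak. With stricter peaks, meaning histone peaks of score 100 or more and FAIRE peaks whose height reached 61.1, the median of that list, it was 0.760 points (-0.578 to 2.49) and was no longer called. The excess at members was thus one of peaks that enter the region from beside the starts, and most of it lay in peaks of score under 100.

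**Figure D1:**
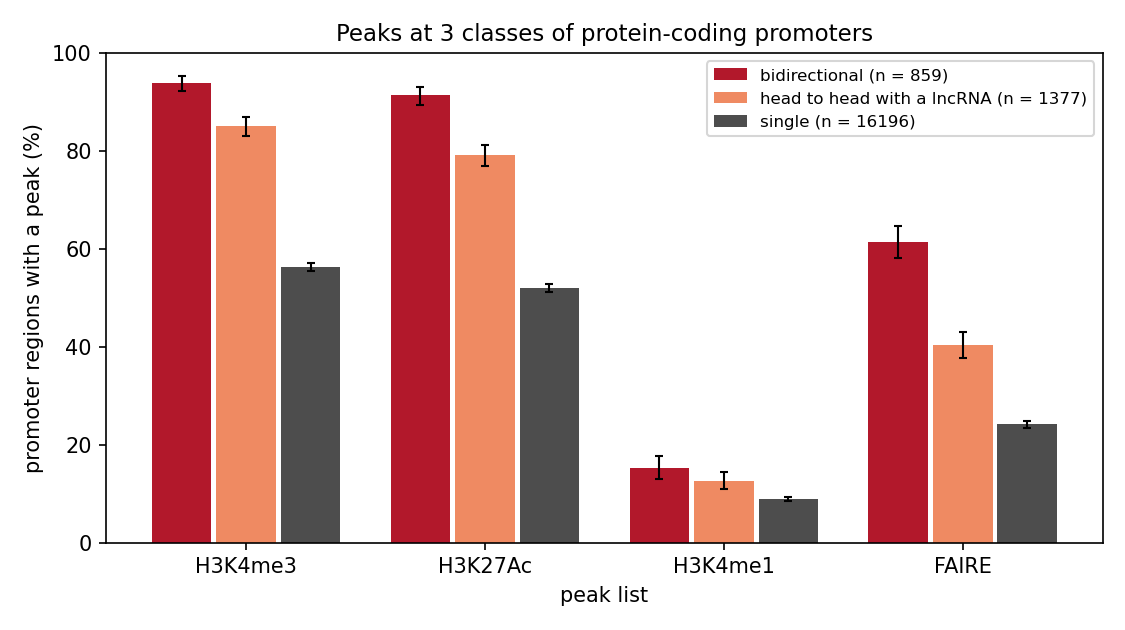
Share of promoter regions with a peak (percent, vertical axis) for each of the 4 peak lists (horizontal axis) at bidirectional promoters (red, n = 859), protein-coding promoters head to head with a lncRNA (orange, n = 1377) and single promoters (grey, n = 16196). Error bars are 95% Wilson intervals; bidirectional promoters stand highest in each list, from 15.1% for H3K4me1, where the interval overlaps that of the lncRNA class, to 93.9% for H3K4me3.

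The combinations of peaks were few at members. The commonest was H3K4me3 with H3K27Ac and FAIRE and without H3K4me1, at 422 members (49.1%) and 3493 other promoters (19.9%). Next came H3K4me3 with H3K27Ac alone, at 233 members (27.1%), and all 4 marks, at 96 members (11.2%). No peak of any list met 51 members (5.94%, 4.54 to 7.72%) and 6761 other promoters (38.5%, 37.8 to 39.2%). H3K4me3, H3K27Ac and FAIRE thus stood together, with or without H3K4me1, at 518 members (60.3%, 57.0 to 63.5%) and 4153 other promoters (23.6%, 23.01 to 24.3%). With the stricter peaks the share at members was 39.8% (36.6 to 43.1%). H3K27Ac without H3K4me3 was found at 1 member, RDH13/EPS8L1, which also had H3K4me1 and FAIRE and was looked up after its state was seen. Where H3K4me3 was present, FAIRE was found at 527 of 807 members (65.3%, 62.0 to 68.5%) and 4249 of 10288 other promoters (41.3%, 40.4 to 42.3%).

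The histone marks of a pair were rarely divided between its genes. A single H3K4me3 peak covered both starts at 800 members (93.1%, 91.2 to 94.6%), and a single H3K27Ac peak did at 781 (90.9%, 88.8 to 92.7%). No member had its starts in different H3K4me3 peaks or different H3K27Ac peaks, and 5 had H3K4me3 over 1 start only. A single FAIRE peak covered both starts at 448 members (52.2%, 48.8 to 55.5%), and the starts lay in different FAIRE peaks at 7. FAIRE was over the minus-strand start only at 23 members and over the plus-strand start only at 16. In the whole list 15.5% of FAIRE peaks begin or end where another ends or begins, and the part of such cuts in these counts was not tested.

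H3K4me1 lay beside the starts instead. Of the 130 members with it, 22 had 1 peak over both starts and 98 had it in the region but over neither start. Among other promoters with H3K4me1, 1012 of 1610 had it over the start. Cover by H3K4me1 at members fell to 2.91% of pairs at the midpoint and stood at 13.2% at 1800 bp to the left and 13.0% at 1800 bp to the right. Other promoters were uneven, with 5.92% covered 1800 bp upstream, 5.76% at the start and 9.57% covered 1800 bp downstream. At 1800 bp the small share of members with the mark was thus about even on the sides of both genes. It was less even elsewhere, with 7.33% at 500 bp left and 9.31% at 500 bp right, and 7.22% and 5.36% at 4000 bp. Pairs marked on both sides were not counted.

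**Figure D2:**
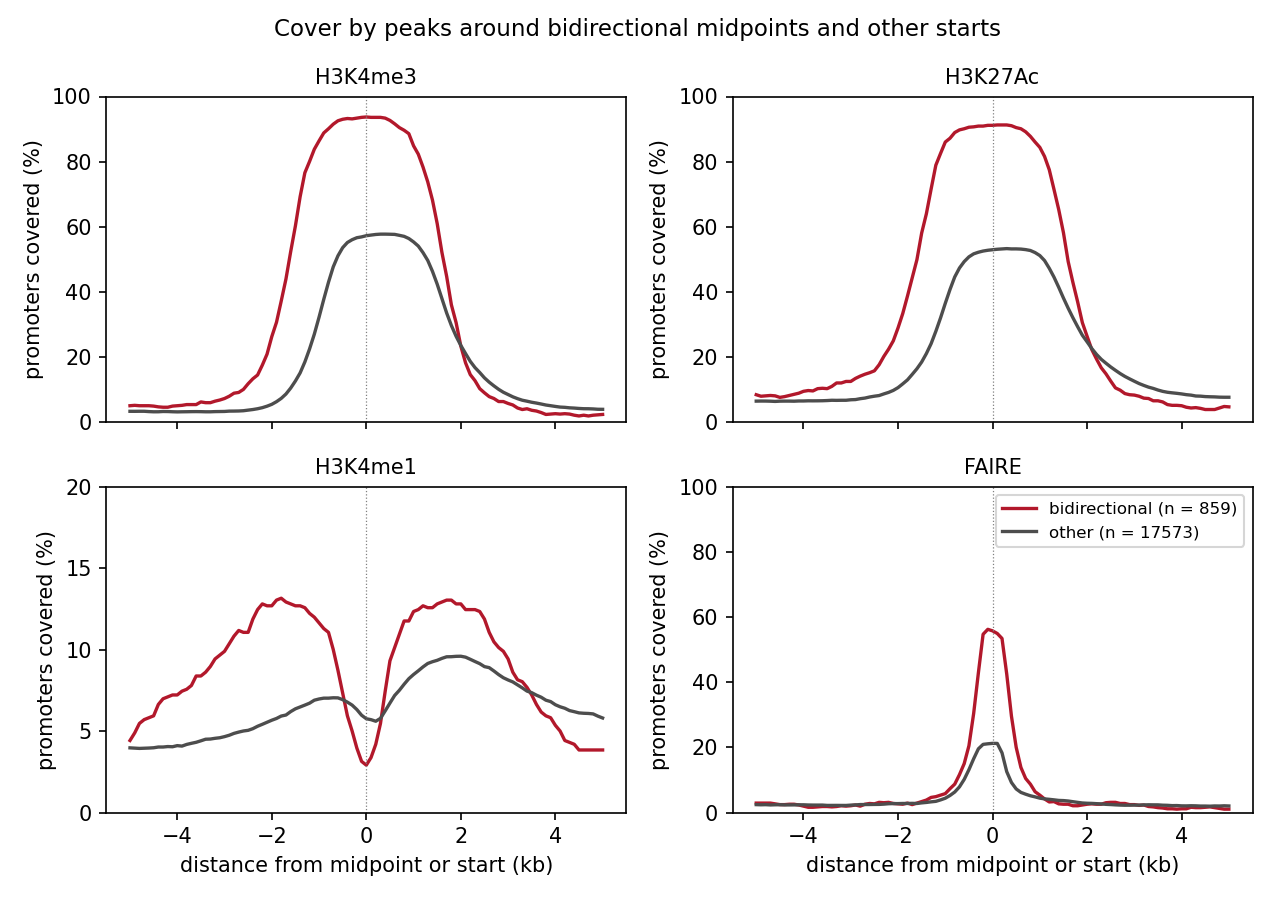
Share of promoters covered by a peak (percent, vertical axis; the H3K4me1 panel ends at 20%) against distance (kb, horizontal axis) from the midpoint of bidirectional pairs (red, n = 859; left is the minus-strand gene's side) or from the start of other promoters turned to read rightward (grey, n = 17573). H3K4me3 and H3K27Ac cover was near symmetric close to the midpoints, 86.4% and 86.0% at 1000 bp left and 84.9% and 84.4% at 1000 bp right, and H3K4me1 dipped to 2.91% at the midpoint; no error bars are drawn.

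Over all members, H3K4me3 reached about as far into the minus-strand as into the plus-strand genes. The edges of the peak lay a median of 1580 bp (1537 to 1609 bp) to the left of the minus-strand start and 1571 bp (1534 to 1609 bp) to the right of the plus-strand start. Counted by gene, H3K4me3 reached 1734 bp upstream (1706 to 1767 bp) and 1581 bp downstream (1555 to 1605 bp) of the starts of 1545 member genes. Single promoters, those with neither a coding nor a lncRNA gene head to head, had the opposite balance. There the mark reached 1022 bp upstream (1011 to 1033 bp) and 1761 bp downstream (1744 to 1777 bp). Genes head to head with a lncRNA lay between in the upstream reach, with 1332.5 bp (1307 to 1362 bp), and not in the downstream reach, with 1811.5 bp (1780 to 1844 bp). Upstream of a member gene lies the partner, so the values are the 2 readings of 1 domain.

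**Figure D3:**
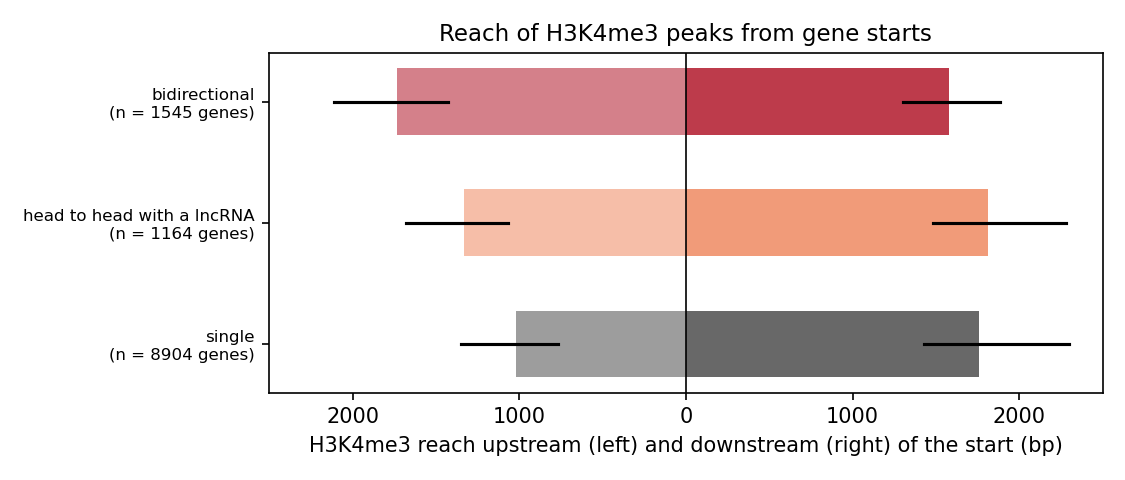
Median distance (bp, horizontal axis) from gene starts to the upstream (left bars) and downstream (right bars) edges of the H3K4me3 peak over the start, for genes in bidirectional pairs, genes head to head with a lncRNA and single genes; black lines run from the lower to the upper quartile. The upstream medians were 1734, 1332.5 and 1022 bp, and the downstream medians 1581, 1811.5 and 1761 bp.

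Peak sizes differed less than peak presence. The widest H3K4me3 peak at a member had a median width of 3325 bp (3276 to 3391 bp), against 2906 bp (2885 to 2927 bp) at other promoters. The tallest FAIRE peak had a median height of 74.1 (70.3 to 78.1), against 67.1 (66.0 to 68.1), where height is taken as reads of the combined samples, since the list has no header and any scaling to the input is not stated. FAIRE peaks were if anything narrower at members, with a median width of 805.5 bp (773 to 833 bp) against 842 bp (831 to 854 bp). H3K4me3 scores could hardly be ranked, as 745 of the 807 members with a peak (92.3%) stood at 3100 or more, and 81.0% of the other promoters with one did. In the whole H3K4me3 list the median score was 3100 and the highest 3233.06. H3K27Ac scores had room, with a median of 1546 (1477 to 1650) at members and 1252 (1223 to 1287) at other promoters.

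Where FAIRE met a member, it usually spanned the midpoint. The centre of the tallest FAIRE peak lay between the starts at 236 of 528 members (44.7%, 40.5 to 49.0%), on the side of the minus-strand gene at 151 and on the side of the plus-strand gene at 141. That peak covered the midpoint at 464 of the 528 (87.9%, 84.8 to 90.4%). Its centre lay within 250 bp of the midpoint at 80.1% of members (76.5 to 83.3%) and within 250 bp of the start at 63.0% of other promoters (61.6 to 64.4%). The midpoint lies upstream of both starts of a pair, so these reference points are unlike, and the part of this in the difference was not tested. At other promoters the centre lay upstream of the start in 3074 of 4465 cases (68.8%, 67.5 to 70.2%). Peaks that share no base with a region were not measured, which keeps the centres near the starts in both classes.

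The spacing of the starts went with FAIRE more than with the histone marks. FAIRE met 175 of 337 pairs with starts up to 100 bp apart (51.9%, 46.6 to 57.2%) and 161 of 246 pairs over 100 to 200 bp apart (65.4%, 59.3 to 71.1%). It met 87 of 112 pairs over 200 to 300 bp apart (77.7%, 69.1 to 84.4%). Beyond that the share was lower again, with 62 of 90 pairs over 300 to 500 bp (68.9%, 58.7 to 77.5%) and 43 of 74 over 500 to 1000 bp (58.1%, 46.7 to 68.7%). Region width grows with spacing, but FAIRE over the midpoint alone was also highest over 200 to 300 bp, with 46.0%, 61.8%, 73.2%, 66.7% and 40.5% in the same classes. There the widest spacing had the lowest share (30.1 to 51.9%), but its interval overlapped that of the closest starts (40.7 to 51.3%). H3K4me3 stood between 86.5% and 97.3% in all 5 classes, lowest in the widest spacing. The median FAIRE height was 64.6 (59.5 to 67.8) for the closest starts and 93.9 (78.6 to 106.8) for the most distant members. The median H3K4me3 width was 3148 bp (3074 to 3260 bp) and 3836 bp (3341 to 4059 bp) in these classes. Both come from the tallest or widest peak in regions that grow with spacing, and the part of this was not tested.

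Peaks at members had median widths of 805.5 bp for FAIRE and 3325 bp for H3K4me3. The part of peak width in whether 1 peak spans a pair was not tested. For pairs over 500 to 1000 bp apart, a single H3K4me3 peak covered both starts at 59 of 74 (79.7%, 69.2 to 87.3%) and a single FAIRE peak at 9 (12.2%, 6.53 to 21.5%). Pairs just outside the rule, with starts over 1000 to 2000 bp apart, numbered 78. Of these, 61 had H3K4me3 (78.2%, 67.8 to 85.9%), 57 H3K27Ac (73.1%), 39 FAIRE (50%) and 4 H3K4me1 (5.13%). A single H3K4me3 peak covered both starts at 32 of them (41.0%, 30.8 to 52.1%). The members nearest to it were PSMB1/TBP at 995 bp, MS4A6A/MS4A4A at 991, APBA3/MRPL54 at 990, UBQLN4/LAMTOR2 at 984 and NEMP1/NAB2 at 980. All but MS4A6A/MS4A4A, a pair of immune-cell membrane genes without a peak, had H3K4me3, H3K27Ac and FAIRE. Among the pairs nearest outside were TXNDC12/BTF3L4 at 1008 bp, TMEM38A and an unnamed gene at 1024, ZNF654 and an unnamed gene at 1039 and CSMD2/C1orf94 at 1041. Of those named, again all but the last had those 3 marks.

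**Figure D4:**
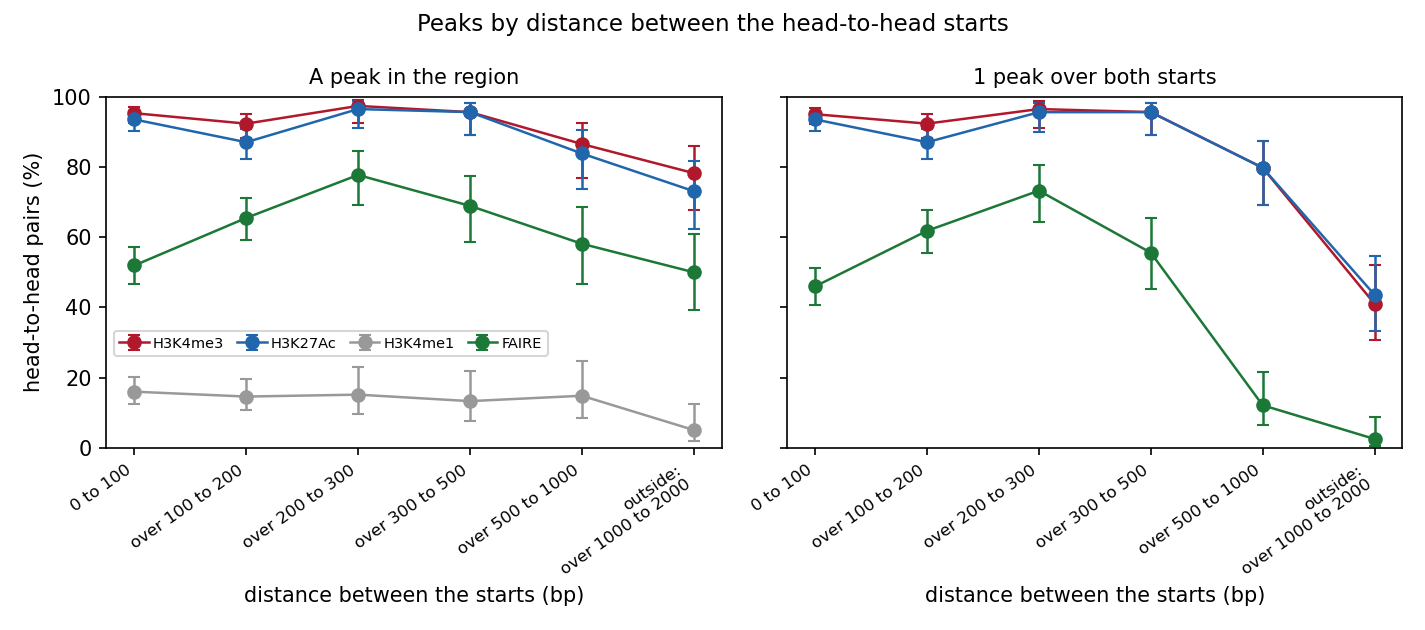
Share of head-to-head pairs (percent, vertical axis) with a peak in the region (left) and with 1 peak over both starts (right) by distance between the starts (bp, horizontal axis), for H3K4me3 (red), H3K27Ac (blue), H3K4me1 (grey, left panel only) and FAIRE (green). Error bars are 95% Wilson intervals; FAIRE in the region was highest at 77.7% over 200 to 300 bp, and the last class holds the 78 pairs outside the rule.

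Member promoters shared a base composition that the rule did not use. Motifs and composition were read in windows of 300 bases, from 250 before to 50 after each start. The ratio of observed to expected CpG had a median of 0.877 (0.866 to 0.888) in the 1656 member windows and 0.667 (0.658 to 0.674) in the 17573 others. GC content had medians of 65.0% and 59.7%. In CpG the members resembled genes head to head with a lncRNA, whose median ratio was 0.868 (0.859 to 0.877).

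Several short motifs were found more often in member windows. The GC box, GGGCGG, was present on either strand in 1197 member windows (72.3%) and 50.5% of others, and in 52.4% of all 19229. Promoters head to head with a lncRNA held it as often as members, in 72.9%. CCGGAAG, the core bound by ETS factors, was present in 460 (27.8%) and 10.4%, and in 11.9% of all. GCGCATGC, a core bound by NRF1, a regulator of nuclear genes for mitochondria, was present in 8.94% and 3.15%, and in 3.65% of all. ATGGCGGC, a core bound by YY1, was present in 6.76% and 2.85%, and in 3.19% of all. Where starts lie close, both windows of a pair read the same bases, so 1 match can count for both genes. The CCAAT box differed less, with 40.3% and 35.1%, and 35.5% of all. TATAAA, the TATA box, was rarer, on the strand of the gene in 2.84% of member windows, 8.13% of others and 7.68% of all. Windows head to head with a lncRNA held it in 3.05%.

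Members with a CCAAT box had FAIRE more often, and H3K4me3 about as often, as members without. FAIRE met 302 of 402 pairs with a CCAAT box in either window (75.1%, 70.7 to 79.1%) and 226 of 457 without (49.5%, 44.9 to 54.0%). H3K4me3 met 93.8% and 94.1% of the same pairs. The share with FAIRE was higher with the box in each of the 5 spacing classes, 68.1% and 43.8% for the closest starts and 84.2% and 42.4% over 300 to 500 bp. The intervals overlapped over 200 to 300 bp (83.6% and 66.7%) and over 500 to 1000 bp (68.1% and 40.7%). The box went with FAIRE outside the pairs too: among other promoters with H3K4me3, FAIRE met 2031 of 3637 with it (55.8%, 54.2 to 57.4%) and 2218 of 6651 without (33.3%, 32.2 to 34.5%). Other motifs went with peaks as well. FAIRE met 74.2% of pairs with the NRF1 core (64.2 to 82.1%) and 60.0% without (56.5 to 63.4%). H3K4me3 met 96.0% of pairs with the GC box (94.2 to 97.2%) and 85.5% without (79.4 to 90.1%), and 97.8% with the ETS core (95.2 to 99.0%) and 92.2% without (89.8 to 94.1%). For FAIRE and the GC box the order was the other way round, with 60.2% of pairs with the box and 66.9% without, and the intervals overlapped. Pairs with the YY1 core had H3K4me3 at 75 of 75 and FAIRE at 34 (45.3%, 34.6 to 56.6%), below the 63.0% (59.6 to 66.3%) without it. A match is a string of letters and says nothing of a bound factor.

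**Figure D5:**
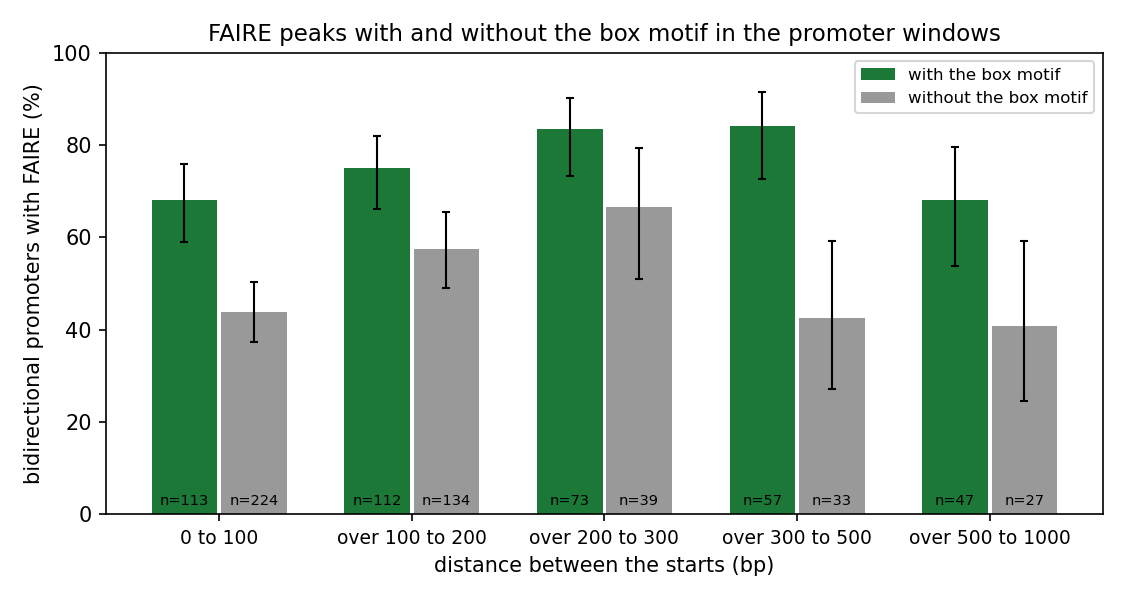
Share of bidirectional promoters with a FAIRE peak (percent, vertical axis) by distance between the starts (bp, horizontal axis), for pairs with the CCAAT box in either promoter window (green) and without it (grey); n stands in each bar and error bars are 95% Wilson intervals. The green bar is the taller in each class, from 68.1% against 43.8% for the closest starts to 68.1% against 40.7% for the most distant.

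Genes head to head with a lncRNA stood between members and single promoters. Of these 1377 promoters, 1171 had H3K4me3 (85.04%, 83.1 to 86.8%), 1091 H3K27Ac (79.2%, 77.0 to 81.3%), 173 H3K4me1 (12.6%, 10.9 to 14.4%) and 555 FAIRE (40.3%, 37.7 to 42.9%). The 16196 single promoters had 56.3%, 52.0%, 8.87% and 24.1%. A coding partner thus went with more FAIRE than a lncRNA partner, 61.5% against 40.3%. The classes were not compared at matched base composition or motif content, and the part of these in the difference was not tested. For H3K4me1 the intervals of members (12.9 to 17.7%) and of genes head to head with a lncRNA overlapped. That of single promoters (8.44 to 9.32%) lay below both.

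Gene groups were uneven in how often they used such promoters. Genes of mitochondrial ribosomes, respiration and protein import supplied 45 of 204 genes (22.1%), where 8.61% of all genes were in pairs. Of the 46 pairs they formed, 45 had H3K4me3, 44 H3K27Ac, 36 FAIRE and 11 H3K4me1, where the shares over all members were 93.9%, 91.4%, 61.5% and 15.1%, so that H3K4me3 and H3K27Ac were close to the general share. These shares apply to the pairs of the other groups as well. Some of the 46 pairs share a gene and its peaks, and with 1 pair per locus FAIRE met 75% of the group's pairs. Outside pairs, 145 of the group's 159 promoters had H3K4me3 and 89 had FAIRE. Over all other promoters these shares were 58.5% and 25.4%, which apply to the promoters outside pairs of the other groups as well. With the stricter peaks, which keep 50% of the FAIRE list, FAIRE met 56.5% of the 46 pairs instead of 78.3%. The 61.5% over all members is for the full list and cannot be set beside this 56.5%. Some pairs joined genes of mitochondria on both sides, such as MRPL46/MRPS11, for proteins of the large and small ribosomal subunit. The pair without a peak was ATP5MJ/TDRD9, and the canonical start of ATP5MJ, a small subunit of ATP synthase, lay 6740 bp away and had H3K4me3. Here and in the other groups, examples outside the textbook pairs were picked after their values were seen.

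DNA repair and replication supplied 27 of 105 genes (25.7%) in 28 pairs, of which 26 had H3K4me3 and H3K27Ac and 18 had FAIRE. The group was taken by symbol. It holds MCM3AP and POLDIP2, named as partners of such factors, and leaves out repair genes such as XPC and NTHL1. Outside pairs, 67 of 78 promoters had H3K4me3 and 44 had FAIRE. FKBP3/FANCM, with a helicase of the Fanconi anaemia pathway, had a FAIRE height of 139.8, and XRCC3/ZFYVE21, with a factor of recombination, had 122.0. The pairs without a peak were PRSS54/GINS3 and RAD51D/FNDC8, where the canonical start of RAD51D lay 1662 bp away and had H3K4me3.

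Genes of RNA polymerases and splicing supplied 20 of 96 genes (20.8%) in 20 pairs. H3K4me3 and H3K27Ac met all 20, near the 93.9% and 91.4% of all members, and FAIRE met 15, where 61.5% of all members had it. ZBTB4/POLR2A, with the largest subunit of RNA polymerase II, had a FAIRE height of 63.7, and XPC/LSM3, which joins a sensor of DNA damage to a splicing factor, had 113.9. The proteasome gave 6 of 49 genes (12.2%) in 6 pairs, which all had H3K4me3 and H3K27Ac, 3 of them with FAIRE. Among those 3 is PSME3IP1/RSPRY1, taken by its symbol, and PSME3IP1 is not a proteasome subunit. Outside pairs FAIRE met 50 of 76 promoters of the polymerase and splicing group and 27 of 43 of the proteasome, and H3K4me3 met 71 and 38.

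Of the groups listed, replication-dependent histone genes were the most often paired, 23 of 69 genes (33.3%) in 12 pairs. In all 12 both genes encode histones, mostly an H2A gene head to head with an H2B gene, whose products form a dimer in the nucleosome. H3K4me3, H3K27Ac and FAIRE met the same 9 pairs, and H3K4me1 none. Outside pairs, 21 of 46 histone promoters had H3K4me3 and 13 had FAIRE. H2BC4/H2AC6 had a FAIRE height of 169.4, H2BC21/H2AC20 153.5 and H2BC11/H2AC11 144.7. The pairs without a peak were H2AC25/H2BC26, H2AC1/H2BC1, a pair known from the testis, and H3C7/H2BC9. The H2A and H2B pairs had starts 170 to 251 bp apart.

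Zinc finger genes were seldom in pairs, 30 of 504 (5.95%), and made 27 pairs. Of these 26 had H3K4me3, 25 H3K27Ac and 14 FAIRE, and none had H3K4me1. Outside pairs, 385 of 474 promoters had H3K4me3 and 207 had FAIRE. ZNF668/ZNF646 was 1 of 4 pairs of zinc finger genes on both sides, with a FAIRE height of 72.6. The pair without a peak was ZNF597/NAA60, whose ZNF597 is an imprinted gene.

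Genes of cilia and sperm tails supplied 17 of 151 genes (11.3%) in 18 pairs, of which 17 had H3K4me3, 16 H3K27Ac and 12 FAIRE. The group was taken by symbol and holds genes not tied to cilia, such as SPATA5 of NUDT6/SPATA5 and SPATA5L1 of GATM/SPATA5L1, both pairs with FAIRE. Among the group's promoters outside pairs, 70 of 134 had H3K4me3 and 32 had FAIRE. TOM1L2/DRC3, which joins an endosomal adaptor to a part of the motile axoneme, had a FAIRE height of 187.3, and IFT20/TNFAIP1, with a carrier of intraflagellar transport, had 126.7. CFAP90/MTRR had no peak.

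Symbols of developmental transcription factors supplied 7 of 164 genes (4.27%) in 6 pairs, and 1 of the 7, FOXL2NB, is a neighbour of FOXL2 that the symbol caught and not a factor. Among their promoters outside pairs, 61 of 157 had H3K4me3 and 11 had FAIRE. Only FOXM1/TULP3 and SYMPK/FOXA3 had H3K4me3, H3K27Ac and FAIRE. FOXM1 drives genes of mitosis, and FOXM1/TULP3 had a FAIRE height of 51.8. FOXL2/FOXL2NB, SOX30/C5orf52, LMF1/SOX8 and SOX18/TCEA2 had no peak of any list.

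Of 14 textbook pairs, 5 were members. NPAT/ATM joins a coactivator of histone genes to the kinase that signals DNA breaks, 406 bp apart. It had H3K4me3 over chr11:108091317-108095652 (4336 bp), H3K27Ac over 5189 bp, a FAIRE peak of height 116.2 over both starts, and H3K4me1 of score 80.1 over the start of ATM. PPAT/PAICS, for enzymes of purine synthesis, had H3K4me3 over chr4:57299663-57304801 (5139 bp), the widest of the 5, and a FAIRE height of 54.8. The 3 GC boxes between its starts lie in that FAIRE peak, chr4:57301353-57302074. SARS2/MRPS12, for a tRNA synthetase and a ribosomal protein of mitochondria, had H3K4me3 over 3065 bp and a FAIRE height of 131.5, with 4 CCAAT boxes between the starts. PDCD10/SERPINI1, which joins a gene of vascular malformations to neuroserpin, had H3K4me3 over 4144 bp and a FAIRE height of 115.8.

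COL4A4/COL4A3 stood apart from those 4. It encodes chains of basement membrane collagen and was the only pair among the 42 collagen genes. It had H3K4me3 over chr2:228027704-228030435 (2732 bp), H3K27Ac with a score of 169.8, and no FAIRE peak. The H3K27Ac scores of the other textbook members were 1415 to 3100.

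The other textbook pairs did not meet the rule. In 8 of them the most upstream annotated starts cross, so that the genes overlap: the plus-strand start minus the minus-strand start was -126 bp at SURF1/SURF2 and -16597 bp at HSPD1/HSPE1. All 8 had H3K4me3 and H3K27Ac. By canonical starts HSPD1/HSPE1, which encode the chaperonins of mitochondria, COL4A1/COL4A2, TAP1/PSMB9, SURF1/SURF2, and TOE1/MUTYH were among those that became members. For CHEK1/STT3A the annotation places both genes on the plus strand.

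The widest H3K4me3 peak of a member was at RHOF/SETD1B, 10992 bp over chr12:122234420-122245411. SETD1B is itself a methyltransferase of H3K4. The region had no H3K27Ac, and its FAIRE peak of height 79.9 covered the start of RHOF only. LPXN/ZFP91 followed with 8513 bp, SHC1/CKS1B with 8339 bp and STX10/IER2 with 7982 bp, all with an H3K27Ac score of 3100. LPXN encodes a focal adhesion protein, SHC1 an adaptor of receptor tyrosine kinases, CKS1B a partner of cyclin-dependent kinases and IER2 an immediate early factor. SHC1/CKS1B, with 5 CCAAT boxes between its starts, also had a FAIRE height of 185.0. A readthrough of ZFP91 with CNTF forms another member with LPXN and shares the peak.

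The tallest FAIRE peak of a member was at ARMH4/ARID4A, 225.5 over chr14:58764710-58765439, between starts 365 bp apart. ARID4A binds the retinoblastoma protein. GPR108/TRIP10 had 216.4, TRAPPC6A/BLOC1S3 had 209.8 and KIF24/NUDT2 had 208.1. All 4 peaks covered both starts. TRIP10 acts with CDC42 on the membrane, and TRAPPC6A and BLOC1S3 both serve vesicle traffic. At these 4 pairs H3K4me3 was 3326 to 6654 bp wide, and H3K4me1 was found beside the starts of KIF24/NUDT2.

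The highest H3K4me1 score at a member was 639.3 at C11orf68/DRAP1, over chr11:65676617-65686397. That peak ended before the start of C11orf68, and the region had no FAIRE peak, while its H3K27Ac peak was 34918 bp wide. NME7/BLZF1 had a score of 581.4 and NTHL1/TSC2 527.8, also over neither start. TSC2 restrains growth signalling and NTHL1 repairs oxidised bases. Of the other pairs among the 5 highest scores, 1 that is not described had its H3K4me1 peak over both starts. BFSP1/DSTN had a score of 415.8, over the start of BFSP1, a lens filament gene.

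At 5 members H3K4me3 covered 1 start and not the other, with starts 652 to 971 bp apart. EFCAB12/IFT122 had it over EFCAB12, with a width of 1427 bp, and had no H3K27Ac. C1orf232/ZNF593, RBP5/CLSTN3 and RHBDF1/MPG had it over the plus-strand gene. NOL9/TAS1R1 had it over NOL9, a ribosome maturation factor, and not over TAS1R1, a taste receptor. There the CpG ratio was 0.859 at the covered start and 0.274 at the other, and for C1orf232/ZNF593 it was 0.763 and 0.0793. For RHBDF1/MPG the covered start had the lower ratio, 0.185 against 0.241.

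H3K4me3 without H3K27Ac was found at 23 members (2.68%, 1.79 to 3.99%) and 6.38% of other promoters. Of the 23, 9 had FAIRE and none had H3K4me1, and RHOF/SETD1B, with its 10992 bp of H3K4me3, is among them. The 5 with the closest starts were LYSMD2/TMOD2, PEX11A/WDR93, KCTD19/LRRC36, AGAP8/TIMM23B and AGBL4/ELAVL4, none with FAIRE. TMOD2 and ELAVL4 are neuronal genes. Their H3K4me3 peaks were 507 to 2191 bp wide, under the lower quartile of 2868 bp over all members with the mark.

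The 51 members without a peak were poorer in CpG, with a median ratio of 0.602 (0.454 to 0.756) against 0.880 (0.867 to 0.895) for those with one. Those with the closest starts were PLCZ1/CAPZA3, CIDEB/LTB4R, PRSS54/GINS3, CFAP90/MTRR, DCST2/DCST1, LYPD4/DMRTC2, WNT3/WNT9B and ZDHHC19/SLC51A, 19 to 50 bp apart. Their known roles are mixed: PLCZ1 is the sperm phospholipase that activates the egg, LTB4R is a receptor for leukotriene B4, SLC51A is part of a bile acid transporter, and WNT3 and WNT9B are secreted signals. At 16 of the 51, the canonical start of 1 of the genes lay elsewhere and had H3K4me3, as for GINS3, a part of the replicative helicase, 97391 bp away. The same held for MTRR, which reactivates methionine synthase, 17962 bp away, and for UHRF1 in ARRDC5/UHRF1, a reader of methylated DNA, 6421 bp away.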

How the data were processed

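FAIRE-seq and ChIP-seq for H3K4me3, H3K27Ac and H3K4me1 were run on MDAMB231 cells, 2 samples each, with 1 input sample for FAIRE and 1 for ChIP. The authors aligned single-end reads to hg19/GRCh37 with BWA, removed duplicates and poorly mapped reads, combined the samples of an assay and called peaks against input. In the deposited MACS lists the score is minus 10 times the log10 of the p-value of the peak, and in the deposited FindPeaks list the FAIRE signal is taken as the peak height in reads of the combined samples. The depth per sample is not in the files. Genes, lncRNAs and readthrough tags came from GENCODE release 44, and sequence from the hg19/GRCh37 reference. A peak counted when it shared at least 1 base with a region. Shares have 95% Wilson intervals and differences Newcombe intervals; medians have order-statistic intervals, and the CpG classes were pooled with Mantel-Haenszel weights. Motifs were matched exactly on both strands in windows of 300 bases, and sites of different motifs may overlap. Gene groups were taken by symbol. Named pairs were the textbook pairs, the 5 with the widest H3K4me3, tallest FAIRE and highest H3K4me1 peaks, 8 without a peak and 5 without H3K27Ac with the closest starts, and 5 with H3K4me3 over 1 start; none lay on chromosome 8, and a few that the rule takes are left out of the text. The members and lists were chosen with earlier results of these data known. The alternatives were the midpoint inside the peak, equal width, a window of 1000 bp, stricter peaks, starts up to 500 bp apart, canonical starts, CpG classes, stricter other promoters, no readthrough genes, and 1 pair per locus. Counting was tested on simulated data and against bedtools 2.31.1, with python 3.11.15, numpy 2.4.6, pandas 2.3.3, scipy 1.17.1 and matplotlib 3.10.9.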

Additional observations from a re-analysis of the deposited data

How the results depend on the processing

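Under 10 alternatives for each list, the differences in share between bidirectional and other promoters stayed above 0 and called for H3K4me3 (12.4 to 37.7 points), H3K27Ac (17.1 to 39.5 points) and FAIRE (25.6 to 37.4 points), the lower ends for the histone marks coming within 5 classes of CpG. For H3K4me1 the values ran from -2.85 to 8.59 points. With the midpoint or start inside the peak the H3K4me1 difference reversed to -2.85 points, and with stricter peaks it was 0.760 points and not called; the cause was not tested. Counting 1 pair per locus was an alternative chosen after seeing the data. Of 51 values of other results, 43 stayed within their interval and 8 did not. With the midpoint inside the peak, H3K4me3, H3K27Ac and FAIRE stood together at 55.1% of members. Stricter peaks gave 39.8% for that share, a median FAIRE height of 91.0 (fewer low peaks are left by construction), 59.8% with FAIRE for starts over 200 to 300 bp apart and 56.5% of mitochondrial pairs with FAIRE. Canonical starts gave 96.0% of members with 1 H3K4me3 peak over both starts, an upstream reach of 1819 bp and 87.4% with H3K4me3 head to head with a lncRNA. No paired analysis was possible because the deposited lists merge the samples of each assay, which also kept a replicate from being left out. Stricter peaks kept 91.3% of the H3K4me3, 86.8% of the H3K27Ac, 57.1% of the H3K4me1 and 50% of the FAIRE list. Depth is not in the files, so whether a region without a peak was covered by enough reads was not tested.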

Other observations

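The share of genes in pairs was read by chromosome, where 8.61% of all genes were in pairs. On chromosome 14, 75 of 616 protein-coding genes were in pairs (12.2%), on chromosome 6 it was 111 of 1048 (10.6%) and on chromosome 12 it was 110 of 1040 (10.6%). Chromosome 21 had the lowest share, 12 of 229 (5.24%). The histone pairs H2BC4/H2AC6, H2BC11/H2AC11 and their neighbours belong to the count of chromosome 6. The share of pairs with FAIRE ran from 11 of 24 on chromosome 20 (45.8%) to 14 of 16 on chromosome 13 (87.5%). H3K4me3 met 22 and 16 of these pairs. Over all members the shares were 61.5% for FAIRE and 93.9% for H3K4me3. These shares were not compared by a test.

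The surroundings of the pairs were looked at out to 5000 bp from the midpoint or start. H3K4me1 was found within that distance of 218 members (25.4%, 22.6 to 28.4%) and 3105 other promoters (17.7%, 17.1 to 18.2%). FAIRE was found within it at 572 members (66.6%, 63.4 to 69.7%) and 6772 other promoters (38.5%, 37.8 to 39.3%). Peaks at members made up 4.30% of the H3K4me3 list on chromosomes 1 to 22 (748 peaks), 1.99% of the H3K27Ac list (726), 0.489% of the H3K4me1 list (129) and 1.22% of the FAIRE list (547).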
